A study of Mus musculus with 4 samples.

Results

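Gene expression was compared between a pair of AKT-nonactivated cultures, OSKA − 4OHT and OSK + 4OHT. Each was profiled once, so the comparison rests on 2 of the 4 single-channel Agilent arrays of the study, and no difference between them has a replicate check. All cells were mouse embryonic fibroblasts from several mixed male embryos in mid-gestation, with an EGFP transgene that reports Oct4 (OE-MEFs). Every culture received the Oct4, Sox2 and Klf4 retroviruses (OSK), and OSKA cells also received AKT-MER, in which myristoylated AKT is fused to a modified estrogen receptor that needs the ligand 4-hydroxytamoxifen (4OHT). From day 3 of infection OSKA − 4OHT cells were given vehicle and so held the fusion protein without its ligand. OSK + 4OHT cells were given the ligand and held no fusion protein. RNA was collected at day 8 of infection (8 dpi). The other arrays were OSK − 4OHT, with neither AKT-MER nor ligand, and OSKA + 4OHT, in which AKT-MER should have been activated. The label of OSKA + 4OHT is at odds with itself, since its description calls AKT-MER not active while its title and treatment give the ligand, and the title was followed. The comparison asks what still separated the controls when AKT should have been inactive in both. AKT-MER and 4OHT both differ between the arrays, as does the position on the slide, and these cannot be told apart within the pair, so the level in OSK − 4OHT is given beside each main result.

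Each level is the log2 of the spot intensity minus that of the 75th percentile of its array, and differences are OSKA − 4OHT minus OSK + 4OHT on the log2 scale. Where 4 levels follow a gene, they are those in OSK − 4OHT, OSK + 4OHT, OSKA − 4OHT and OSKA + 4OHT, in that order. A gene counted as measured where its brightest probe was well above background on both arrays. That held for 20080 genes, 14608 of them with a gene symbol, from 27890 of 55681 probes. In bulk RNA, fewer cells that express a gene and less RNA per cell cannot be told apart.

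Interferons are secreted when a cell senses foreign nucleic acid, and their receptors act through STAT2 and IRF9, among other factors, on a large set of antiviral genes. The element at which these factors bind, the interferon-stimulated response element, has a core of GAAA, any 2 bases and GAAA. Fibroblasts also secrete the collagens and glycoproteins of the extracellular matrix, while ATF4 switches on amino acid synthesis and transport genes under stress, and SREBP2 the genes of cholesterol synthesis. The estrogen receptor is the natural target of 4OHT.

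The transgene was checked first. The brightest probe of Esr1, the estrogen receptor gene (chr10:5489352-5489411 in mm9), lay at 3.11 in OSKA − 4OHT. It was not well above background in OSK + 4OHT, so this probe was at least 201-fold higher in OSKA − 4OHT. Other Esr1 probes showed no difference of this size. A_51_P474658 and A_66_P138072 were not well above background on any array, and A_52_P237077 lay at −4.20, −5.26, −4.15 and −3.47. Pou5f1, which encodes Oct4, lay at 1.29 in OSKA − 4OHT and 1.23 in OSK + 4OHT, and Klf4 at 3.50 and 3.24. None of the 4 arrays measured Sox2 above background, though every culture was given that virus, so it checks nothing here. The probes of Pou5f1 and Klf4 may read the virus as well as the cell's own gene, and this was not analysed. Akt1 differed by −0.02. Akt2 differed by −0.16, with other probes between −0.10 and 0.56. The labelled cell type was checked with 12 fibroblast markers, all of which were well above background on both arrays. Of these, 11 were higher in OSKA − 4OHT, with a median difference of 0.19. The 12 macrophage and leukocyte markers were also well above background on all 4 arrays, with summed levels of 8.55 and 8.59 (8.05 in OSK − 4OHT). Of the other cell type markers, those of endothelial cells (3.54 and 3.87), keratinocytes (4.03 and 4.17), neural cells (3.84 and 4.01), cartilage and bone (3.81 and 3.90), adipocytes (3.81 and 3.57), muscle (1.07 and 0.91) and erythroid cells (0.28 and 0.31) were dimmer and partly at background.

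The sequences below belong to genes or transcripts of groups described further on, and were not picked by the size of the difference. Only promoters that hold the response element are shown. The first set are promoters of interferon response genes that were higher in OSKA − 4OHT, from RefSeq (GRCm38.p6), 5′ to 3′ on the strand of the gene, with the core of the response element in capitals on either strand. The Ifit1 stretch is chr19:34640745-34640853 (+) and that of Rsad2 is chr12:26456523-26456612 (−). In the Isg15 stretch, chr4:156200835-156200936 (−), 3 overlapping copies of the core form 1 run.
Ifit1: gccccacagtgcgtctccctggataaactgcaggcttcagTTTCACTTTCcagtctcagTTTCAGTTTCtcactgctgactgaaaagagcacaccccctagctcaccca
Rsad2: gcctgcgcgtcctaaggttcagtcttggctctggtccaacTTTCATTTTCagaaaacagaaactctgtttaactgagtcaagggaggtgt
Isg15: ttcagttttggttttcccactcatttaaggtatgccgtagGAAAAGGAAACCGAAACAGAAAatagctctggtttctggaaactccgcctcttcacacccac

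The second set are probes of predicted transcripts at chromosome 9 (the files use mm9), which were lower in OSKA − 4OHT. They lie at chr9:3016673-3016732, chr9:3017151-3017210, chr9:3024224-3024283 and chr9:3030720-3030779, all on the + strand, and capitals mark a stretch of 11 bases that 5 of the 7 probes of this kind on chromosomes 2 and 9 share.
Gm10720, probe A_55_P2138100: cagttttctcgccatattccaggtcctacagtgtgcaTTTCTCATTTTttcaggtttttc
Gm10720, probe A_55_P2138104: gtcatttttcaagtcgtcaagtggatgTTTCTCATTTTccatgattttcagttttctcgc
Gm10718, probe A_55_P2165554: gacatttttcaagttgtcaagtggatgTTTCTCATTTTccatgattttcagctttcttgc
Gm10717, probe A_55_P2093862: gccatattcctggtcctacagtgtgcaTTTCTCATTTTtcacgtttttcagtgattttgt

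The arrays were alike for most genes. Of the 20080 genes, 67 (0.334%) reached 2-fold upward in OSKA − 4OHT and 92 (0.458%) reached it downward, which is 159 genes or 0.792%. The median difference was −0.02, the SD was 0.26, and 95.9% of genes lay within 1.5-fold. Where only the brighter array measured a gene, the bound on the difference passed 2-fold for 93 genes with OSKA − 4OHT as the brighter array and for 160 with OSK + 4OHT. With scaling to the spike-in probes the median of all genes shifted by −0.16, and there were 36 higher and 159 lower genes (18.5% of them higher, against 42.1%). Normexp with quantile normalization, which compresses dim signals, gave 8 and 22 (26.7% higher).

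**Figure D1:**
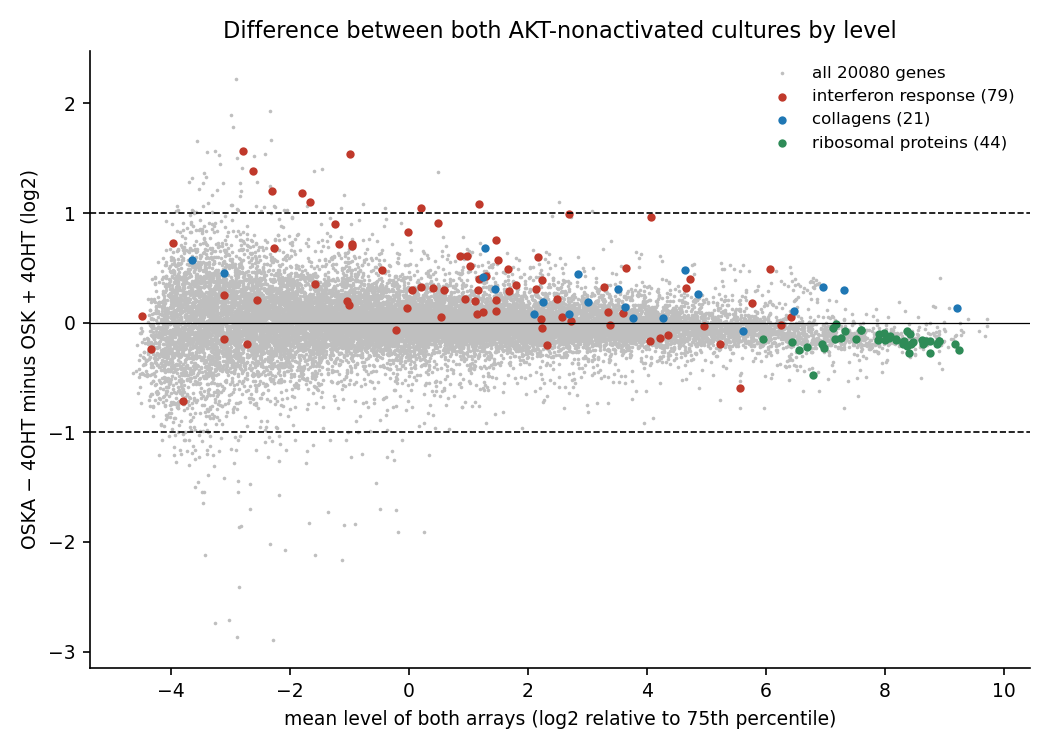
Difference between OSKA − 4OHT and OSK + 4OHT (log2, vertical axis) against the mean level of both arrays (log2 relative to the 75th percentile, horizontal axis) for 20080 genes. Dashed lines mark 2-fold. The spread narrowed with the level, 64 of the 79 interferon response genes lay above 0, and all 44 ribosomal protein genes lay slightly below it.

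Most large differences came from dim probes. In the dimmest of 3 equal parts of the genes, 58 were higher and 74 lower by at least 2-fold. In the middle part 7 were higher and 18 lower. In the brightest part 2 were higher and none lower (0.0299%). Where a changed gene had another measured probe, that probe moved the same way in 19 of 24 genes, and by at least 1.5-fold in 9 of 24. Protein-coding genes and unnamed noncoding transcripts of the dimmest part passed 2-fold at a like rate, 1.98% and 2.24%.

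Over the 19522 genes measured on all 4 arrays, this pair had fewer genes apart by 2-fold than any other pair of arrays, 138 (0.707%). OSK cells with and without 4OHT had 162 such genes, and OSKA − 4OHT and OSK − 4OHT had 379. The pairs that held OSKA + 4OHT had between 515 and 783. The SD over genes was 0.25 for this pair and 0.29 for the OSK arrays. Pearson's r across genes was 0.996 for this pair and 0.995 for the OSK pair. The genes are not independent replicates, and the pairs share arrays, so the counts are a description.

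**Figure D2:**
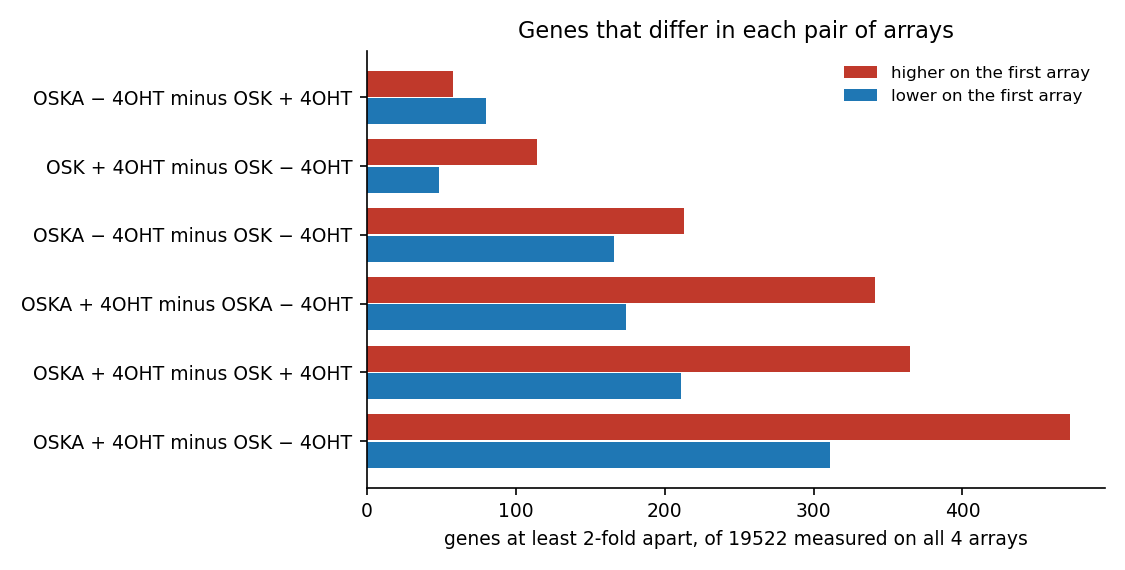
Number of genes at least 2-fold apart (horizontal axis) in each of the 6 pairs of arrays, out of 19522 genes measured on all 4. Bars start at 0 and show genes higher (red) and lower (blue) on the first array named. OSKA − 4OHT and OSK + 4OHT had the fewest, 58 higher and 80 lower.

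The interferon response genes had the largest median of the whole lists examined, although with quantile normalization that of the ATF4 targets was as large (0.31 against 0.30). Of 88 listed genes 79 were measured, and 64 of these were above 0 (81.0%, against 45.7% of all genes). At least 2-fold higher were 8 (0.334% of all genes were), with none lower (0.458%), and 22 were at least 1.5-fold higher (1.88% of all genes) and 2 lower (2.2% of all genes). The median was 0.30. The list was known from earlier results of these data to be higher in OSKA cells, so its direction is not independent evidence. The summed level of the macrophage and leukocyte markers was 8.55 in OSKA − 4OHT and 8.59 in OSK + 4OHT, and their part in the result was not tested. Under spike-in scaling its median was 0.14, and 5 members were at least 2-fold higher. Under normexp with quantile normalization 2 members were, Ifit1 and Oasl2, and the median was 0.26.

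The antiviral effectors carried most of it, with 34 of 39 above 0 and a median of 0.48, or 1.40-fold. Ifit1 (chr19:34723796-34723855), whose protein binds viral RNA caps, lay at −1.73 in OSK − 4OHT, −1.76 in OSK + 4OHT, −0.22 in OSKA − 4OHT and 0.91 in OSKA + 4OHT. The difference of this pair was 1.54, or 2.90-fold, with a software error of 0.21, the error that the scanner software gives for the spots (median 0.20 over all genes). Both OSK arrays were thus alike, and OSKA − 4OHT lay between them and OSKA + 4OHT. In the same order, the GTPase gene Mx1 lay at −3.37, −3.57, −2.01 and −0.52 (difference 1.57, or 2.96-fold, software error 0.26). Rsad2, which encodes viperin, lay at −3.24, −3.30, −1.92 and −0.22 (1.38). Both were dim, and normexp with quantile normalization gave 0.80 for Mx1.

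The differences of the list were smaller for bright genes. Its median was 0.52 for 16 members in the dimmest part of all genes (5 at least 2-fold higher, against 58 of all 6694 genes there), 0.34 for 35 in the middle part (3, against 7 of 6692) and 0.07 for 28 in the brightest part, where 18 were above 0 and none passed 2-fold. Some members of the middle and brightest parts still showed the order seen for Ifit1. Isg15, a ubiquitin-like protein that is coupled to other proteins, lay at 3.67, 3.59, 4.55 and 5.67. Its difference was 0.96, and its other probe gave 1.11. Rtp4 lay at 2.35, 2.19, 3.19 and 4.13 (0.99). Oasl2, of the oligoadenylate synthetase family, lay at 0.81, 0.65, 1.73 and 2.87 (1.08). Usp18, which removes ISG15 and damps receptor signalling, lay at −0.16, −0.32, 0.73 and 1.57 (1.05). For these 4 genes the OSK arrays differed by −0.16 to −0.08, and both OSKA arrays were higher than both of them. Ifi44 (1.20) and Oasl1 (1.10) completed the effectors past 2-fold. Against the group stood Ifitm1, a membrane protein that blocks viral entry, at 6.03, 5.87, 5.27 and 4.58. Its difference was −0.60, and another probe gave −0.63. The related Ifitm2 gave −0.19 and Ifitm3 −0.02.

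Among sensors and transcription factors, 19 of 26 were above 0 with a median of 0.16, which was −0.00 under spike-in scaling. Irf7, a transcription factor that amplifies the response, lay at −2.03, −2.39, −1.21 and −0.31 (1.18). It was the single member of this group past 2-fold. Stat2 gave 0.57, Irf9 gave 0.22, and the RNA sensors Dhx58, Ddx58 and Ifih1 gave 0.72, 0.39 and 0.32. The receptor genes Ifnar1 (0.05) and Ifnar2 (0.02) and the factors Irf3 (−0.11) and Irf1 (−0.02) differed little. Mavs, the adaptor of the RNA sensors, gave −0.20.

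Of the interferon genes themselves, 16 had a probe, and 6 were well above background in OSK + 4OHT and 9 in OSKA − 4OHT. Ifnb1, the interferon that fibroblasts release first, was well above background in OSKA − 4OHT alone of the 4 arrays, at −3.52, and at least 2.04-fold higher there than in OSK + 4OHT. Ifna7 went the other way and was at least 2.12-fold higher in OSK + 4OHT. These were all dim probes, and more spots were well above background in OSKA − 4OHT (55.4%) than in OSK + 4OHT (52.4%).

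Guanylate-binding proteins and immunity-related GTPases, which attack microbes inside the cell, were above 0 in 11 of 14, with a median of 0.26. Gbp3 gave 0.83 and Igtp 0.43, while Tgtp1 gave −0.71 from a dim probe. MHC class I and immunoproteasome genes were above 0 in 17 of 20. Their median was 0.16, and −0.01 under spike-in scaling. H2-T24 gave 0.64 and the peptide transporter Tap1 0.47. Chemokines and cytokines had a median of 0.08 (−0.08 under spike-in scaling). Cxcl10, which interferon induces, lay at −1.37, −1.05, −0.28 and 1.06 in the array order above (0.76), and Ccl5 gave 0.58. The attractants Ccl7 and Ccl2 gave −0.32 and −0.27.

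**Figure D3:**
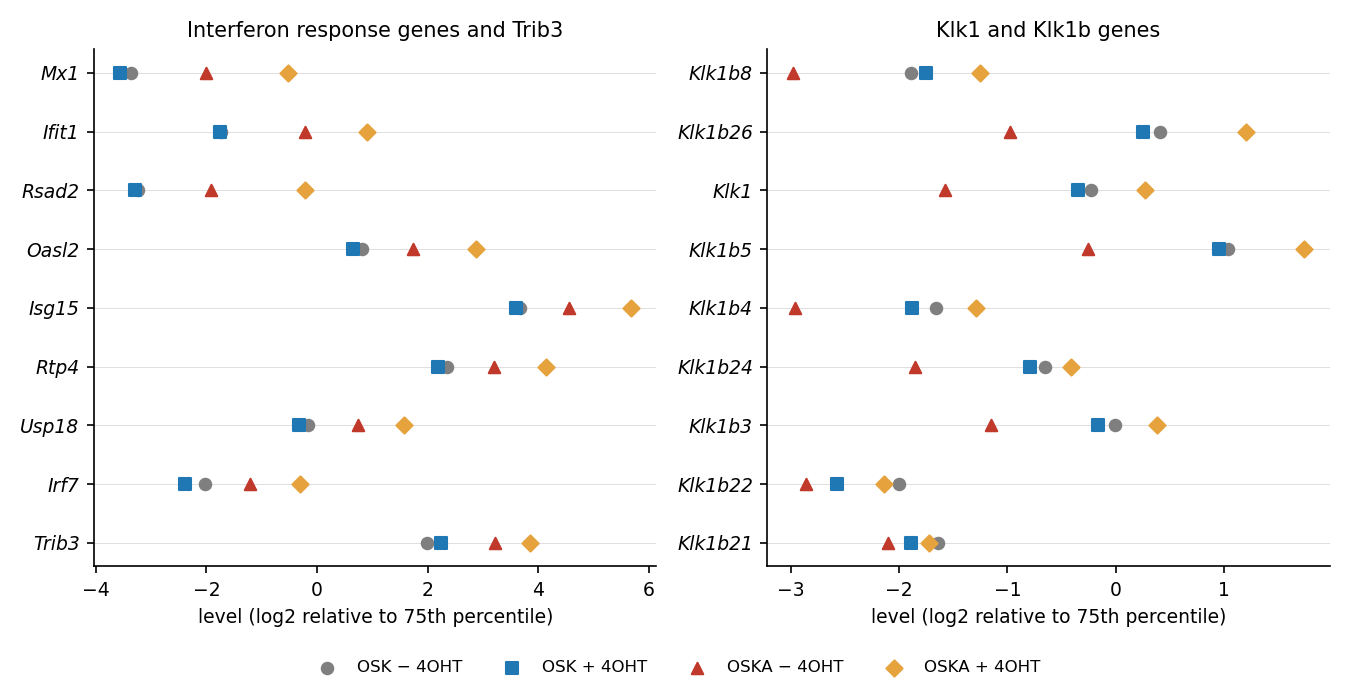
Level (log2, with the 75th percentile of each array at 0, horizontal axis) of single genes on each of the 4 arrays. On the left, the interferon response genes and Trib3 were higher on both OSKA arrays than on both OSK arrays. OSK + 4OHT differed from OSK − 4OHT by −0.35 for Irf7 and by 0.26 for Trib3. On the right, the 9 Klk1 and Klk1b genes were lowest in OSKA − 4OHT.

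The promoters of 59 of the 79 measured interferon response genes were in the RefSeq table, which gives a fixed window around each gene start. The core (GAAA, any 2 bases, GAAA), read on both strands, was present in 27 of them (45.8%), against 3.99% of 27025 genes. Members with it had a median difference of 0.40, and those without it 0.13. Of the members past 2-fold, Ifit1 and Rsad2 held it, while Oasl1, Oasl2, Ifi44 and Irf7 did not. Mx1 and Usp18 had no promoter in the table. The share with the core is a trait of the genes listed and does not compare the arrays. A match describes the letters and is not evidence of binding.

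Most extracellular matrix genes were higher by small differences. Of 69 measured, 59 were above 0 (85.5%), with a median of 0.22, or 1.16-fold. Only 3 were at least 1.5-fold higher (1.88% of all genes were) and 2 at least 1.5-fold lower (2.2%). Under spike-in scaling 41 were above 0, with a median of 0.05. The fibroblast markers, some of which are on the same list, were higher in 11 of 12 (median 0.19), and their part in this was not tested. Collagens were above 0 in 20 of 21, with a median of 0.26 (0.10 under spike-in scaling), while the brightest of the 3 parts of all genes had a median of −0.04. The chains of the main fibrils, Col1a1, Col1a2 and Col3a1, gave 0.30, 0.13 and 0.33. Col5a1, which sets fibril width, lay at 4.47, 4.41, 4.89 and 4.81 in OSK − 4OHT, OSK + 4OHT, OSKA − 4OHT and OSKA + 4OHT (0.48). Col8a2 gave 0.68, with 0.24 for its other probe. Col6a3 was the exception at −0.08.

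Glycoproteins and proteoglycans were above 0 in 22 of 28 (median 0.22, and 0.05 under spike-in scaling). Postn, which encodes periostin, lay at 3.34, 3.49, 4.14 and 4.35 (0.65). Mfap4 gave 0.54, Lum 0.53 and Thbs2 0.51. Cytl1, a secreted cytokine-like protein of cartilage, was the outlier of the group. It lay at 0.81, 0.78, −1.13 and −4.11, so it was 3.76-fold lower in OSKA − 4OHT than in OSK + 4OHT and lower again in OSKA + 4OHT. Among proteases and their inhibitors 17 of 20 were above 0 (median 0.16, and 0.00 under spike-in scaling). The collagenase Mmp13 (−0.56) and the stromelysin Mmp3 stood against them. Mmp3 lay at 4.09, 4.40, 3.49 and 3.40 (−0.91). Adamtsl2 gave 1.55 from a dim probe, at −1.85, −4.17, −2.61 and −3.38, so OSK + 4OHT was the low array there.

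Fibroblast and mesenchymal genes showed little shift as a group (16 of 25 above 0, median 0.06, and −0.11 under spike-in scaling). Cdh2, or N-cadherin, lay at 2.47, 1.98, 3.08 and 2.96, with a difference of 1.10 and 0.70 for its other probe. It was 1 of the 2 genes of the brightest part past 2-fold. The other was Vapb (1.02), whose second probe gave 0.07. The homeobox gene Meox1 gave 1.02, Dpt 0.68, and Cdh11 and Snai2 0.59 and 0.58. Ly6a, the surface antigen SCA-1, gave −0.44, S100a4 −0.36 and Cd34 −0.31.

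**Figure D4:**
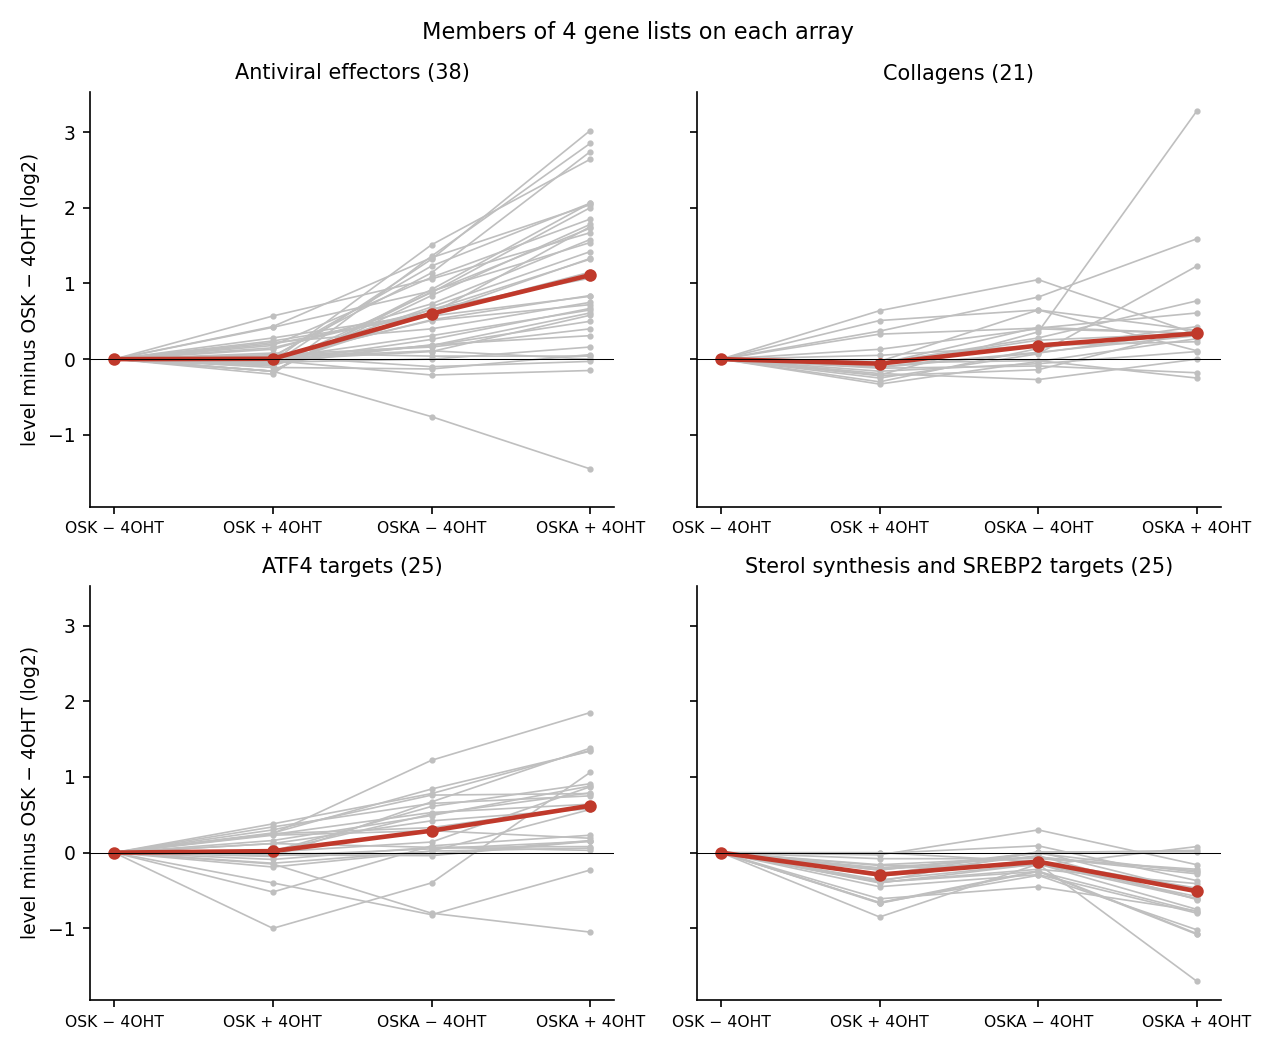
Members (grey) and median (red) of 4 gene lists as the level on each array minus that in OSK − 4OHT (log2, vertical axis), for members measured on OSK − 4OHT and on both arrays compared. Lines join the values of 1 gene. Antiviral effectors, collagens and ATF4 targets had medians of 0.01, −0.06 and 0.02 in OSK + 4OHT and of 0.59, 0.18 and 0.28 in OSKA − 4OHT. The sterol genes had −0.30 and −0.12.

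ATF4 targets were above 0 in 20 of 25 (median 0.28), and 5 were at least 1.5-fold higher (1.88% of all genes were). Under spike-in scaling 14 were above 0, 1 was at least 1.5-fold higher and the median was 0.12. With normexp and quantile normalization 2 reached 1.5-fold. Trib3, a pseudokinase that binds AKT, lay at 1.99, 2.24, 3.21 and 3.84 (0.97). The mitochondrial folate enzyme gene Aldh1l2 gave 0.72 and the proline synthesis gene Pycr1 0.61. The amino acid transporters Slc7a11 and Slc7a5 gave 0.60 and 0.59, with −0.01 for another probe of Slc7a5. Slc7a11 was read by a dim probe at −3.30, −4.30, −3.70 and −2.24, so OSK + 4OHT was the low array there. Chac1, which degrades glutathione, gave 0.57. Stc2 (−0.66) and Cth (−0.42) went the other way. Atf4 itself differed by −0.01. Chaperones of the endoplasmic reticulum had a median of 0.06 (−0.11 under spike-in scaling), and heat shock genes of the cytosol one of 0.00 (−0.16).

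Sterol synthesis genes were above 0 in 22 of 25, with a median of 0.20 (0.03 under spike-in scaling). By the median, both arrays with 4OHT were lower than both without it. The medians relative to OSK − 4OHT were −0.30 in OSK + 4OHT, −0.12 in OSKA − 4OHT and −0.52 in OSKA + 4OHT. Idi1, an isomerase of the pathway, lay at 3.41, 2.75, 3.17 and 2.34 (0.42), so both arrays without 4OHT were higher than both arrays with it. Nsdhl also gave 0.42, though another probe of it gave 0.02. Of 17 members with a promoter in the table, 1 held the sterol element TCACNCCAC (1.44% of all genes did), and 16 held CCAAT (94.1%, against 41.1% of all genes). Mitosis genes, whose median difference was −0.02, held CCAAT in 17 of 22.

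Genes of the estrogen response had a median of −0.02 (0.02 with quantile normalization). However, Greb1, an early target of the receptor, was 2.60-fold higher in OSKA − 4OHT. Greb1 was dim, and its difference ran from 0.89 to 1.38 across the main and alternative processing. It lay at −1.38 and −0.91 in OSK and OSKA cells without 4OHT and at −2.28 and −2.04 with it, and another probe gave 0.87 for this pair. Both arrays without the ligand were thus higher than both with it. Myb gave −0.69 and Igfbp4 0.18.

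Imprinted and IGF genes had a median of 0.11, which was −0.06 under spike-in scaling. Some members of the Dlk1 to Dio3 cluster on chromosome 12 are given here, chosen after their values were seen, and Rtl1 of that cluster was not well above background on either array. Dlk1 lay at 4.74, 5.13, 5.66 and 4.99 (0.53, other probe 0.49). The noncoding Meg3 lay at 4.77, 5.36, 5.88 and 5.43 (0.52), with other probes between 0.74 and 0.90. Mirg gave 0.50, though its other probes ran from −0.22 to 0.60, and Dio3 gave 0.85 from a dim probe. For Dlk1 and Meg3, OSKA − 4OHT was the highest of the 4 arrays. Igfbp5 gave 0.59 and Igfbp2 0.51. Hox genes were above 0 in 18 of 30 (median 0.22, and 0.06 under spike-in scaling). Hoxb9, Hoxb6 and Hoxc6 gave 0.59, 0.51 and 0.47, while Hoxd13, Hoxa10 and Hoxa9 gave −0.18, −0.13 and −0.19. Hoxb3 gave −0.44, and another probe of it 0.47.

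**Figure D5:**
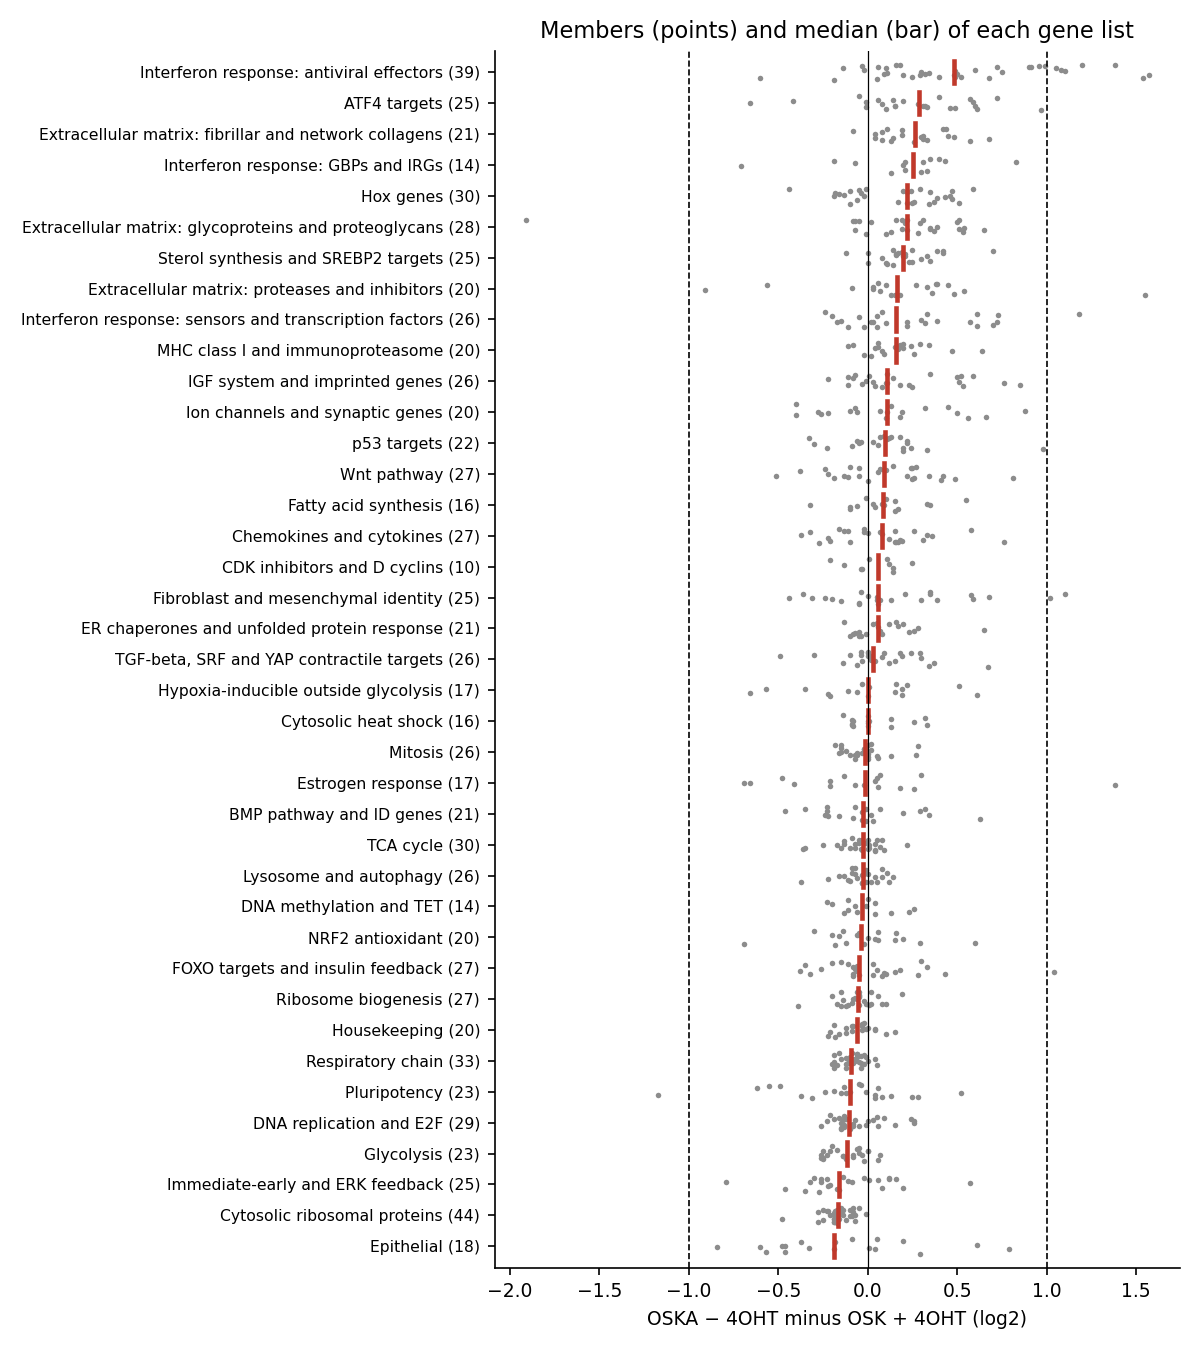
Difference between OSKA − 4OHT and OSK + 4OHT (log2, horizontal axis) of the measured members (points) of each gene list with at least 10 of them, with the median as a red bar and the number of members in brackets. Dashed lines mark 2-fold. Antiviral effectors had the highest median, 0.48, and epithelial genes the lowest, −0.19.

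On the lower side, epithelial genes had a median of −0.19 (−0.35 under spike-in scaling, where the lower groups stood further from 0 than most of the higher ones), with 7 of 18 above 0 and 7 more listed genes not measured on both arrays. Of the measured genes, 2 passed 1.5-fold upward (1.88% of all genes) and 2 downward (2.2%). The keratinocyte markers, some of which are on the same list, had a median of −0.28 with 4 of 6 below 0, and their part in this was not tested. Krt8 lay at 1.22, 0.83, −0.01 and 0.55 (−0.84, other probe −0.71). St14, Cldn3, Dsp and Cdh1 gave −0.60, −0.57, −0.48 and −0.46, while Cdh3 gave 0.79 and Esrp1 0.61. Pluripotency genes had a median of −0.10 (8 of 23 above 0), and 9 listed members were not measured on both arrays. Relative to OSK − 4OHT, the median of 22 members was −0.19 in OSK + 4OHT and −0.19 in OSKA − 4OHT. Fbxo15, a marker of embryonic stem cells, lay at −0.89 in OSK − 4OHT, −1.12 in OSK + 4OHT and −2.29 in OSKA − 4OHT (−1.17), the lowest of the 4 arrays. Fgf4 gave −0.62, Alpl −0.55 and L1td1 −0.49, while Tbx3 gave 0.52 and Klf2 0.28. Tdh, the threonine dehydrogenase of mouse stem cells, lay at 3.23, 3.01, 2.23 and 1.21 (−0.78, other probe −0.75). Immediate-early and ERK feedback genes had a median of −0.16 (8 of 25 above 0), with Spry4 at −0.79, Etv4 at −0.46 and Dusp6 at −0.30. Dusp2 gave 0.57 and Fosl2 0.20.

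All 44 ribosomal protein genes were below 0 (54.3% of all genes were), with a median of −0.17 (−0.33 under spike-in scaling). The 845 other genes at or above the lowest of their levels had a median of −0.11, and 717 of them were below 0. Under quantile normalization the ribosomal median was −0.04, with 10 of 44 above 0. Glycolysis genes were above 0 in 3 of 23 (median −0.12) and respiratory chain genes in 3 of 33 (−0.09), and no member of either reached 1.5-fold. Their shares below 0 were close to that of the 845 bright genes. Housekeeping genes gave a median of −0.06 with 4 of 20 above 0. DNA replication genes had a median of −0.10, the TCA cycle −0.03 with 10 of 30 above 0, and DNA methylation and TET genes −0.03. FOXO targets had a median of −0.05, and their 1 member past 2-fold was Foxo4 (1.04), whose other probe gave −0.36.

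The 4 probes shown above and 3 related ones, 1 more on chromosome 9 and 2 on chromosome 2, were all at least 2-fold lower in OSKA − 4OHT. Both places they map to, at the start of chromosome 9 and chr2:98502597-98507154, are known in the mouse assembly for copies of the major satellite repeat of pericentromeric chromatin. The probes were not compared with the repeat sequence itself, so this rests on their position. They were looked at after their values were seen. Their differences ran from −2.12 to −1.25 (median −1.84), so OSK + 4OHT was 2.38 to 4.35-fold higher. Probe A_55_P2165554 of Gm10718 lay at −0.93 in OSK − 4OHT, −0.51 in OSK + 4OHT, −2.63 in OSKA − 4OHT and −2.00 in OSKA + 4OHT. Probe A_55_P2138100 of Gm10720 lay at 0.10, 0.37, −0.88 and −0.55. Both OSKA arrays were lower than both OSK arrays for these probes. The probes share sequence, so they are not independent measurements. Of 5 probes elsewhere in the genome that share at least 15 bases with them, 2 were measured on both arrays. These were not lower, at 0.37 and −0.00, but the first was dim and the second matched only on the opposite strand.

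The Klk1 family of tissue kallikreins, secreted serine proteases whose genes lie side by side on chromosome 7, was also looked at after its values were seen. All 9 measured members were lower in OSKA − 4OHT (54.3% of all genes were), 6 of them by at least 2-fold (0.458% of all genes), with a median of −1.08. Under normexp with quantile normalization only Klk1, Klk1b5 and Klk1b26 passed 2-fold. Klk1b5 lay at 1.04, 0.95, −0.26 and 1.74 (−1.21), and Klk1 at −0.23, −0.35, −1.58 and 0.27 (−1.22). Klk1b26 lay at 0.41, 0.25, −0.98 and 1.20 (−1.22), and its other probe gave −1.49. OSKA − 4OHT was the lowest of the 4 arrays for these 3 genes, and OSKA + 4OHT the highest. Klk1b21 and Klk1b22 were also lowest in OSKA − 4OHT but highest in OSK − 4OHT. The genes are closely related and probes may cross-hybridise, which was not tested. Of the other kallikreins, 3 of 4 were lower, with Klk10 at −0.96, Klk12 at −0.73, Klk9 at −0.17 and Klk8 at 0.27.

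Among genes measured on both arrays, the largest differences were in dim genes, many of them outside any function examined. Crygc, a lens crystallin, was higher in OSKA − 4OHT by 2.22, and lay at −4.38, −4.01, −1.79 and −4.47, so OSKA − 4OHT stood apart from the other 3 arrays. The same held for Lyzl6 (1.78), Diras1 (1.67) and Tcp11l1 (1.57), which fell to 0.83, 0.85 and 0.60 in the alternative nearest to 0. Kif6 was lower by 2.89 and lay at −4.11, −0.83, −3.72 and −4.20, so there OSK + 4OHT stood apart, and another Kif6 probe gave −0.11. Nkx1-2 (−2.74), Ncald (−2.41) and Gkn3 (−2.16) likewise had OSK + 4OHT as the 1 high array. 4930581F22Rik gave −2.71 and D030024E09Rik −2.12, which were −1.14 and −0.82 in the alternative nearest to 0.

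In the brightest part, Trp53inp1, a p53 target, gave 0.98, with 0.31 for its other probe. Aldh3a1, an aldehyde dehydrogenase, lay at 6.70, 6.36, 5.58 and 5.98 (−0.78, other probe −0.81). The calcium channel subunit gene Cacna2d2 lay at 3.78, 3.42, 2.60 and 2.59 (−0.82, other probe −0.92). For both, the OSKA arrays were lower than the OSK arrays. Zfp352 gave −0.96 and 4933427D06Rik −0.87. Among 10790 named genes of the middle and brightest parts, 8 were at least 2-fold higher, of which 3 were interferon response genes (Ifit1, Oasl2 and Usp18). At least 1.5-fold higher were 70, of which 14 were on that list, and of 83 that were 1.5-fold lower 1 was.

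Unnamed noncoding transcripts made up 39 of the 159 changed genes, 17 higher and 22 lower. Of 2370 measured, 1.65% were changed (0.792% of all genes), and 1608 lay in the dimmest part. Of those in the middle part, a transcript of chromosome 17 (probe at chr17:71267639-71267698 in mm9) had the largest difference. It lay at 0.82, 1.22, −0.69 and 1.20, so it was 3.75-fold lower in OSKA − 4OHT. One on chromosome 7 lay at 0.02, 0.64, −1.07 and 0.45 (−1.71). OSKA − 4OHT was the low array for both.

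The 159 changed genes were also read against OSK − 4OHT, which measured 145 of them. Of 61 higher genes, OSK − 4OHT lay nearer to OSK + 4OHT in 49 and nearer to OSKA − 4OHT in 12. Of 84 lower genes it lay nearer to OSK + 4OHT in 58 and nearer to OSKA − 4OHT in 26. These counts use values of the arrays that chose the genes and are a description.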

How the data were processed

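Total RNA was labelled in 1 colour and hybridised to Agilent mouse arrays, 1 array per culture on 1 slide. The deposited intensity values, per the file headers, are background-subtracted processed signals from Feature Extraction 10.7.3.1, on a linear scale and not normalized between arrays. The deposited series matrix holds the same intensity values (ratio 0.995 to 1.0) and served as an alternative.

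Control spots and spots marked as uneven or outliers (124 and 136 on the arrays compared) were left out. The log2 signal minus the 75th percentile of each array was averaged over the spots of a probe. A probe was measured where most of its spots were well above background on both arrays, and the brightest probe stood for its gene. Probes were named through their RefSeq accession (27503 of 55681) or kept the name in the file. The 75th percentiles were 462 (OSK − 4OHT), 377 (OSK + 4OHT), 403 (OSKA − 4OHT) and 383 (OSKA + 4OHT), and 52.4% to 55.4% of spots were well above background. With 1 array per group no test was possible. A difference was called at 2-fold, and also counted at 1.5-fold. Bounds ("at least") use the lowest signal well above background on the dim array, or the probe's own level there if that was higher. The number of arrays limits the precision, and repeated spots of a probe (SD 0.06 and 0.07) show only the technical part of it.

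Members and gene lists (35 of functions and 9 of cell type markers) were chosen with earlier results of these data known. By rule, the text named the transgenes and Akt genes, the 6 largest differences each way over all named genes and in the brightest of 3 equal parts, and the highest and lowest 2 members of each list. Other members were chosen after their values were seen, and some genes that the rule names are not reported here. The alternatives were normexp (offset 50) with quantile normalization, quantile normalization, spike-in scaling (253 spots), median scaling, no filter, a filter on all 4 arrays, the mean of all probes, marked spots kept, the series matrix and a 1.5-fold threshold. R 4.3.3, limma 3.58.1 and Python 3.11.15 were used, and the code was tested on simulated data.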

Additional observations from a re-analysis of the deposited data

How the results depend on the processing

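The counts of 67 higher and 92 lower genes depended on the processing. They were 8 and 22 with normexp and quantile normalization, all of them among the 159, 36 and 159 with spike-in scaling, 1058 and 1221 with no filter on dim probes, and 377 and 441 at 1.5-fold. The SD of the differences was 0.17 with normexp and quantile normalization and 0.54 with no filter. The first compresses dim signals by its construction and the last adds probes at background. With the spike-ins as the scale, the median gene shifted by −0.16, and the cause was not tested. Under it 14 of 41 list medians turned from above to below 0. Of the lists whose median was at least 0.1 from 0, 4 did so, to −0.0041 for interferon sensors and transcription factors, −0.0059 for MHC class I genes, −0.0554 for imprinted and IGF genes and −0.0568 for ion channel and synaptic genes. The other 10 had medians nearer to 0. Over the 9 alternatives 25 of 369 list medians changed sign, 21 of them in lists nearer to 0 than 0.1. Antiviral effectors ranged from 0.32 to 0.48, collagens from 0.10 to 0.29, ATF4 targets from 0.12 to 0.31, sterol genes from 0.03 to 0.22, Hox genes from 0.06 to 0.22, ribosomal protein genes from −0.33 to −0.03 and epithelial genes from −0.35 to −0.14. Of the named genes' values, 1535 were counted as the same and 45 as moved, but the sizes of the differences were not fixed. Across the main and alternative processing Mx1 ran from 0.80 to 1.57 and D030024E09Rik from −2.28 to −0.82. Other genes varied less, such as Gbp3 from 0.67 to 0.83. No paired analysis was possible because each group has 1 array, and no replicate could be left out. Dim signal limits the differences of the dimmest genes, where most of the called genes lie.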

Other observations

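Genes measured on 1 array of the pair were compared only as bounds. Rgs9 and Olfr1318 were at least 21.9-fold and 20.5-fold higher in OSK + 4OHT, and Cntn2 was at least 11.7-fold higher in OSKA − 4OHT. Ifnk, an interferon of keratinocytes, was at least 2.57-fold higher in OSKA − 4OHT.

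Groups not described above had medians near 0, and those above 0 turned negative under spike-in scaling. NRF2 antioxidant genes had a median difference of −0.04, lysosome and autophagy genes −0.03, BMP pathway and ID genes −0.03, hypoxia-inducible genes outside glycolysis 0.00, contractile targets of TGF-beta, SRF and YAP 0.03, CDK inhibitors and D cyclins 0.06, Wnt pathway genes 0.09, fatty acid synthesis genes 0.09, p53 targets 0.10, ion channel and synaptic genes 0.11 and ribosome biogenesis genes −0.05. Within them, Nkd1, a Wnt inhibitor, gave 0.81, and Cnn1, a calponin, 0.67.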
